A study of Mus musculus with 14 samples.

Results

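Dendritic cells from YUMM1.7 melanomas in which Irf1 had been deleted were compared with cells in which Ikbkb had been deleted, in a study that asked how NF-kB signalling and IRF1 shape type 1 conventional dendritic cells (cDC1). The plates were chosen by the genotype in their labels. They are 9 of 14 plates and hold 356 of 555 cells. Irf1_dXCR1 mice gave 5 plates with 223 cells, and Ikbkb_dXCR1 mice gave 4 plates with 133 cells. The matching floxed controls without the deleter were Irf1_FF mice (4 plates, 165 cells) and Ikbkb_FF mice (1 plate, 34 cells). Each plate held cells sorted as cDC1 from the tumour of 1 female mouse, so p-values measure the spread between mice. The deposited annotation gives an age of 6 weeks for the Irf1_dXCR1 and Irf1_FF mice and for Ikbkb_dXCR1 replicates 3 and 4. The Ikbkb_FF mouse and Ikbkb_dXCR1 replicates 1 and 2 were 8 weeks old. Both deleted groups carry the Xcr1 deleter allele, which acts in cells that express Xcr1, and no plate has the deleter without a floxed gene. All Irf1 plates belong to experiment M3 and all Ikbkb plates to experiment M2. Genotype and experiment therefore cannot be told apart. The difference between the Irf1_FF and Ikbkb_FF plates is given beside most genes as a gauge of the shift between experiments. That gauge also mixes in age, as it sets 6-week-old Irf1_FF mice against an 8-week-old Ikbkb_FF mouse. Its age mix differs from that of the deleted plates.

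The cDC1 is the dendritic cell that is best known for presenting tumour antigens to CD8+ T cells. IKK2, the kinase encoded by Ikbkb, releases NF-kB from its inhibitors, among them the product of Nfkbia, which NF-kB itself induces. IRF1 is a transcription factor induced by interferon-gamma and by NF-kB, and it binds repeated GAAA elements in the promoters of antigen-presentation and guanylate-binding protein genes.

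Total counts per plate ran between 2810321 and 10120557 UMIs in the 9 plates. The plate median of UMIs per cell averaged 135971 ± 38056 in Irf1_dXCR1 plates and 141030 ± 19937 in Ikbkb_dXCR1 plates (SD, n = 5 and 4, two-sided exact permutation p = 0.873). The plate median of genes per cell averaged 1560.2 ± 607 in Irf1_dXCR1 plates and 1467 ± 258 in Ikbkb_dXCR1 plates (exact permutation p = 0.810). Plates shared 0 cell barcodes. The sort label holds in part: 226 of the 356 cells fell in clusters called cDC1-like by their markers (immature, mature, interferon-stimulated or proliferating). Xcr1 was counted in 53 of 223 Irf1_dXCR1 cells and in 47 of 133 Ikbkb_dXCR1 cells, and Naaa in 121 and 78 of the same cells. In immature cDC1-like cells Xcr1 was counted in 25 of 39 Irf1_dXCR1 cells and 17 of 25 Ikbkb_dXCR1 cells, against 0 of the 40 fibroblast- or endothelial-like cells of the series. Xcr1 and Naaa are among the markers that named the immature cluster, so this contrast between clusters follows in part from the naming.

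The makeup of the sorted cells did not separate the 2 deletions. Mature dendritic-like cells, the migratory state marked by Ccr7 and Fscn1, made up 22.03, 18.9, 24.1, 26.5 and 26.5% of the cells of the Irf1_dXCR1 plates, and 22.2, 7.69, 28.9 and 33.3% of those of the Ikbkb_dXCR1 plates. The means of 23.6% ± 3.23 and 23.1% ± 11.2 (SD) lie closer together than the plates of either group. Immature cDC1-like cells averaged 15.8% ± 10.7 in Irf1_dXCR1 plates and 21.4% ± 12.3 in Ikbkb_dXCR1 plates (exact permutation p = 0.476). Interferon-stimulated cells averaged 14.9% ± 7.22 in Irf1_dXCR1 plates and 15.4% ± 7.02 in Ikbkb_dXCR1 plates. Proliferating cells averaged 4.24% ± 3.94 in Irf1_dXCR1 plates and 7.98% ± 2.40 in Ikbkb_dXCR1 plates, and macrophage-like cells averaged 10.6% ± 14.9 in Irf1_dXCR1 plates and 7.53% ± 9.46 in Ikbkb_dXCR1 plates. Cells with the profile of other tissues leaned to the Irf1 experiment. Fibroblast- or endothelial-like cells, marked by collagens, numbered 15 in Irf1_dXCR1 plates and 1 in Ikbkb_dXCR1 plates, with 24 in Irf1_FF plates and 0 in the Ikbkb_FF plate. An unnamed cluster of 22 cells (cluster 9) held 14 Irf1_dXCR1 and 1 Ikbkb_dXCR1 cells, with 7 and 0 in the Irf1_FF and Ikbkb_FF plates. The shares of both had an exact permutation p of 0.0794, or 0.357 adjusted over the 9 states. No state passed, and the smallest p that 5 against 4 plates allow is 0.0159. Because cells were sorted, the gate can set these shares.

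**Figure D1:**
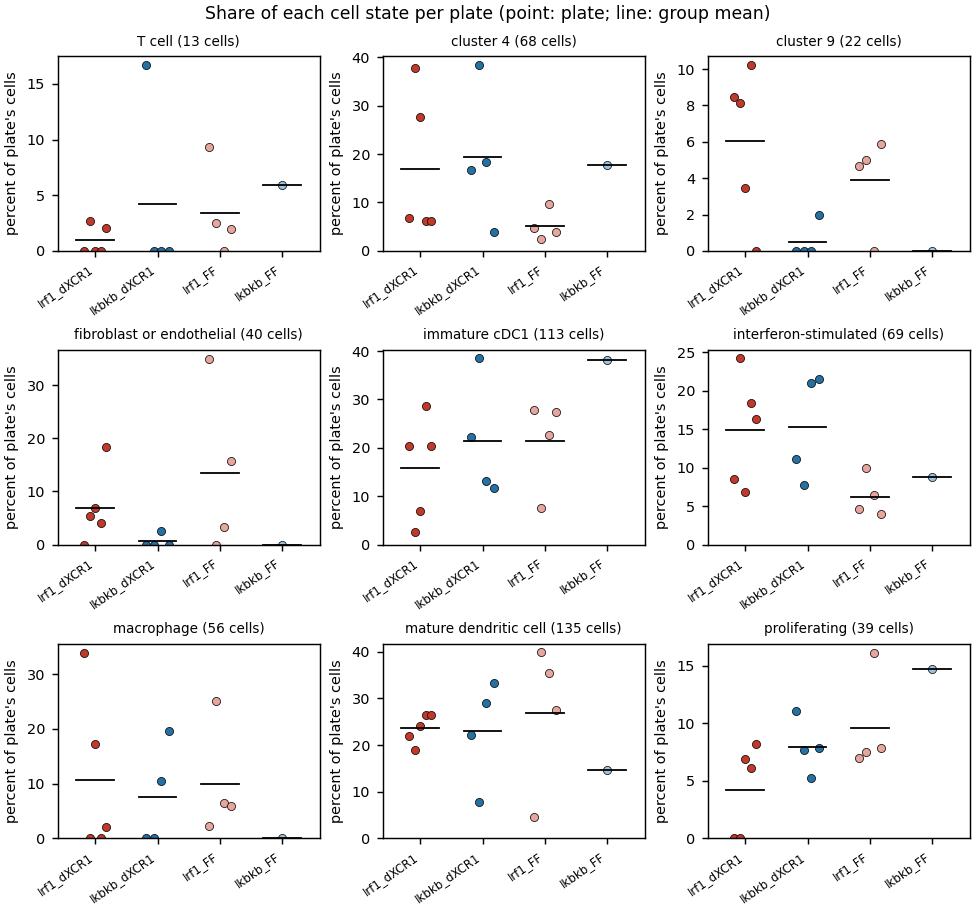
Percent of each plate's cells (y axis) in each of 9 states or clusters, by group. Points are plates and lines are group means; the Irf1_dXCR1 and Ikbkb_dXCR1 points overlap in every panel, and fibroblast- or endothelial-like cells reach 18.4% in an Irf1_dXCR1 plate against at most 2.63% in Ikbkb_dXCR1 plates.

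The transcripts of the targeted genes did not tell the genotypes apart over all sorted cells. Irf1 (GRCm38 chr11:53770014-53778374) stood at 322, 156, 343, 91.2 and 216 CPM (counts scaled to 1000000 UMIs) in the Irf1_dXCR1 plates and at 206, 208, 331 and 194 CPM in the Ikbkb_dXCR1 plates. The groups overlap, with a log2 fold change of -0.06 (SE 0.36) that turned to 0.13 in cDC1-like cells alone; between Irf1_FF and Ikbkb_FF plates it was 1.64 (SE 0.69). Ikbkb (chr8:22659205-22706589) had 372, 310.1, 374, 223 and 364 CPM in Irf1_dXCR1 plates, against 125.7, 245, 269 and 291 CPM in Ikbkb_dXCR1 plates. Its log2 fold change was 0.50 (SE 0.33, adjusted p = 0.997), and -0.42 (SE 0.53) between the control plates. The method tags the 5′ end of transcripts, and the sources used here do not name the deleted exons, so a tag outside the deleted part checks nothing.

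Over all sorted cells, 1 of 4580 tested genes passed, Fn1, which encodes the matrix protein fibronectin. Fn1 (chr1:71585473-71653280) had 69.1, 226, 134, 152 and 396 CPM in Irf1_dXCR1 plates and 0, 2.78, 0.154 and 0.127 CPM in Ikbkb_dXCR1 plates. Every Irf1_dXCR1 plate lay above every Ikbkb_dXCR1 plate, and the log2 fold change was 8.12 (SE 1.20, edgeR adjusted p = 0.0343). The control plates of the same experiments differed in the same direction, with 509.8, 81.4, 52.5 and 332 CPM in Irf1_FF plates and 0.167 CPM in the Ikbkb_FF plate. Of the 26 Fn1-positive Irf1_dXCR1 cells, 14 were fibroblast- or endothelial-like and 8 belonged to cluster 9. Without these clusters the log2 fold change was 4.16 and did not pass (adjusted p = 0.999). Fn1 is among the fixed markers that named the fibroblast- or endothelial-like cluster, and this removal was chosen with the data in view. The Fn1 counts by cluster and the lower value after removal therefore follow in part from the choice of cells. The share called was 0.0218%, and 225 genes (4.91%) had an unadjusted p under 0.05, against 6 genes (0.131%) called and 251 genes (5.48%) at that p between the control plates. DESeq2 on the same plates called 23 genes, among them Spp1, Kctd10, Smarca4, Bcl10, Ighm, Rnase6, Itgb7, Txn1, Fbxo6, Nfkbia, Psme1, Txndc17 and Aldoa, described next.

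Other markers of fibroblasts and endothelium were also more abundant in Irf1_dXCR1 plates, without passing. Their summed level was 437, 2437, 2266.5, 2000.5 and 6288 CPM over 15 genes in Irf1_dXCR1 plates, and 67.0, 251, 968 and 122 CPM in Ikbkb_dXCR1 plates. The range was 230.5 to 9707 CPM in Irf1_FF plates, and the Ikbkb_FF plate had 101 CPM. All 7 tested members were higher in Irf1_dXCR1 plates and 4 had an unadjusted p under 0.05, with a median log2 fold change of 2.70, or 4.30 without Ikbkb_dXCR1 replicate 3, against 0.02 over all genes tested. Fn1 is itself a member of this list. Over all 4580 tested genes, 117 (2.55%) were higher at an unadjusted edgeR p under 0.05. The collagen gene Col1a1 averaged 354 ± 342 CPM in Irf1_dXCR1 plates and 56.5 ± 66.5 CPM in Ikbkb_dXCR1 plates (SD). The matrix genes Sparc and Col3a1 averaged 413 and 417 CPM in Irf1_dXCR1 plates, against 50.0 and 67.6 CPM in Ikbkb_dXCR1 plates. In the Ikbkb_FF plate Sparc and Col3a1 were at 0 and Col1a1 at 0.666 CPM. Spp1, which encodes the secreted protein osteopontin, shared this distribution in part.

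Spp1 had 273, 107, 103, 256 and 476 CPM in Irf1_dXCR1 plates and 65.3, 33.9, 73.9 and 47.7 CPM in Ikbkb_dXCR1 plates. The groups do not overlap, at a log2 fold change of 2.14 (SE 0.47, adjusted p = 0.436) beside 0.99 (SE 0.79) between the control plates. Of 44 Spp1-positive Irf1_dXCR1 cells, 8 were fibroblast- or endothelial-like and 11 were of cluster 9. The other genes that ranked highest also did not pass (adjusted p between 0.643 and 0.70). Kctd10, an adaptor of a ubiquitin ligase, had 96.2, 175, 162, 233 and 253 CPM in Irf1_dXCR1 plates and 55.3, 50.9, 47.4 and 92.9 CPM in Ikbkb_dXCR1 plates. Its log2 fold change was 1.58 (SE 0.38, adjusted p = 0.643), beside 0.20 (SE 0.61) between the controls. Smarca4, the ATPase of the BAF chromatin remodeller, had 82.2 to 160.4 CPM in Irf1_dXCR1 plates and 22.7 to 48.1 CPM in Ikbkb_dXCR1 plates. Its fold change was 1.66 on the log2 scale (SE 0.42), beside 0.45 (SE 0.69) between the controls. Bcl10, which links antigen and pattern receptors to IKK, had 107 to 205 CPM in Irf1_dXCR1 plates and 33.5 to 64.1 CPM in Ikbkb_dXCR1 plates. It differed by 1.60 (SE 0.41) on the log2 scale, beside 0.68 (SE 0.69) between the controls. Sec23a, a coat protein of vesicles that leave the endoplasmic reticulum, had 17.1 to 85.4 CPM in Irf1_dXCR1 plates and 0 to 6.09 CPM in Ikbkb_dXCR1 plates, with 22.01 to 62.5 CPM in Irf1_FF plates and 106 CPM in the Ikbkb_FF plate. In each of these genes every Irf1_dXCR1 plate was above every Ikbkb_dXCR1 plate, as in 74 (1.62%) of all tested genes.

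Among the genes that ranked lowest, Ighm, the heavy chain of IgM, had 78.2, 101, 50.3, 88.5 and 157 CPM in Irf1_dXCR1 plates and 557, 276, 275 and 345 CPM in Ikbkb_dXCR1 plates. The groups stand apart by -1.93 (SE 0.41) on the log2 scale, with an adjusted p of 0.436, and the control plates by -0.22 (SE 0.67). Ighm was the only tested gene of the B cell list, whose members Cd79a, Ms4a1 and Ighd were at 0 in all compared plates. It was counted in 34 of 223 Irf1_dXCR1 cells and 44 of 133 Ikbkb_dXCR1 cells, among them 10 of 39 and 9 of 25 immature cDC1-like cells. Rnase6, a ribonuclease with antimicrobial activity, had 336, 201, 276, 381 and 269 CPM in Irf1_dXCR1 plates and 652, 916, 609 and 593 CPM in Ikbkb_dXCR1 plates. Its log2 difference of -1.24 (SE 0.28) stands beside -0.69 (SE 0.44) between the controls. Itgb7, the beta chain that pairs with the cDC1 integrin Itgae, had 82.5 to 119.8 CPM in Irf1_dXCR1 plates and 227 to 470.1 CPM in Ikbkb_dXCR1 plates (log2 -1.68, SE 0.43; controls -0.73, SE 0.67). Fbxo6, an F-box protein that binds glycoproteins, had 54.8 to 137 CPM in Irf1_dXCR1 plates and 149.8 to 299 CPM in Ikbkb_dXCR1 plates (log2 -1.18, SE 0.33; controls -0.09, SE 0.54). Thioredoxin, from Txn1, averaged 754 ± 107 CPM in Irf1_dXCR1 plates and 1200.5 ± 292 CPM in Ikbkb_dXCR1 plates, and the controls differed by -0.02 (SE 0.29) on the log2 scale. The ribosomal protein gene Rps3a1 averaged 762 ± 101 CPM in Irf1_dXCR1 plates and 1102 ± 118 CPM in Ikbkb_dXCR1 plates (controls -0.13, SE 0.24 on the log2 scale). It has near-identical copies, so its counts are uncertain. None of these lower genes passed (adjusted p between 0.436 and 0.70), and 61 (1.33%) of all tested genes had every Irf1_dXCR1 plate below every Ikbkb_dXCR1 plate.

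**Figure D2:**
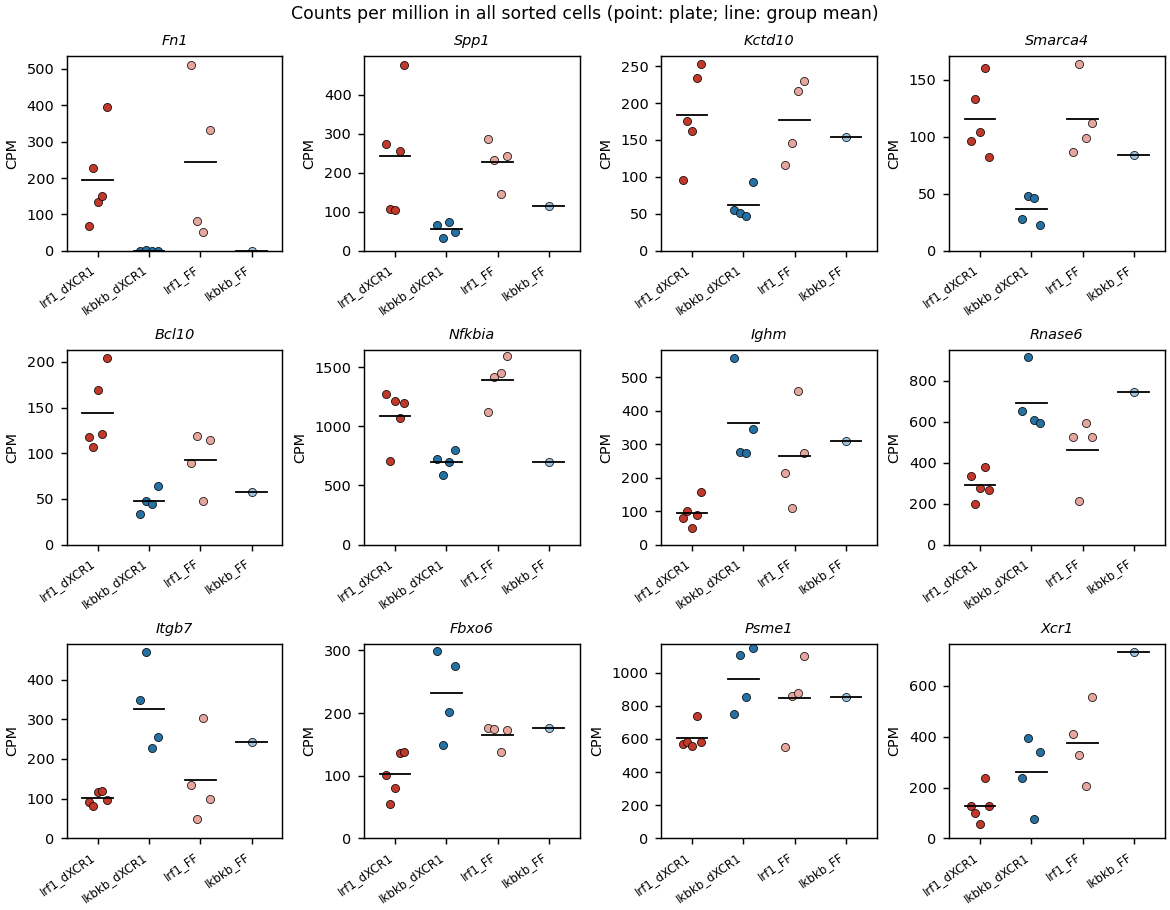
CPM over all sorted cells (y axis) of 12 genes by group. Points are plates and lines are group means; Fn1 is at most 2.78 CPM in Ikbkb plates and at least 52.5 CPM in Irf1 plates, whereas Kctd10, Ighm and Fbxo6 separate the deleted plates and have the Ikbkb_FF point within the range of the Irf1_FF plates.

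Genes around NF-kB and IRF1 were then taken by role. Nfkbia, the feedback inhibitor of NF-kB, had 1277, 703, 1212, 1068 and 1197 CPM in Irf1_dXCR1 plates and 724, 589, 695 and 799 CPM in Ikbkb_dXCR1 plates. One Irf1_dXCR1 plate falls within the range of the Ikbkb_dXCR1 plates, and the log2 fold change was 0.64 (SE 0.18, adjusted p = 0.70). The control plates were further apart, at 1118, 1417, 1449 and 1597 CPM in Irf1_FF plates and 701 CPM in the Ikbkb_FF plate (log2 0.99, SE 0.32). Of 35 tested NF-kB targets and feedback genes, 24 were higher and 11 lower in Irf1_dXCR1 plates, 0 passed, and their median of 0.24 stands beside 0.72 between the controls. Without Irf1_dXCR1 replicate 1 or Ikbkb_dXCR1 replicate 2 that median was 0.07 or 0.08, and without Ikbkb_dXCR1 replicate 4 it was 0.34. This list summed to 8430 and 7341 CPM in the older Ikbkb_dXCR1 mice (replicates 1 and 2) and to 11386 and 12067 CPM in replicates 3 and 4. Irf1_dXCR1 plates had 9553 to 14577 CPM. In cDC1-like cells alone 26 of 32 NF-kB targets and feedback genes were higher with a median of 0.36, beside 0.90 between the controls. There 4 were higher at an unadjusted edgeR p under 0.05, against 72 (1.54%) of all 4671 tested genes, and 0 passed. Gadd45b, a stress gene that NF-kB induces, had 238 to 386 CPM in Irf1_dXCR1 plates and 144 to 209 CPM in Ikbkb_dXCR1 plates (log2 0.90, SE 0.33; controls 0.79, SE 0.58). Cd83, a marker of mature dendritic cells, differed by 0.37 (SE 0.22; controls -0.06, SE 0.36).

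The 300 bases around the start of Nfkbia, Psme1 and Gbp2 are shown because the genes stand for these 2 groups: Nfkbia for NF-kB targets, and the proteasome activator subunit Psme1 and the guanylate-binding protein gene Gbp2 for the interferon-gamma and IRF1 group. They are RefSeq promoters of build GRCm38.p6, from 250 bases before to 50 after the gene start, on the strand of the gene: Nfkbia at chr12:55492598-55492897 (minus strand), Psme1 at chr14:55578244-55578543 (plus strand) and Gbp2 at chr3:142620413-142620712 (plus strand). Capitals mark a match, on either strand, to the NF-kB motif (GGG, any 2 bases, TTTCC) in Nfkbia and to the IRF motif (GAAA, any 2 bases, GAAA) in Psme1 and Gbp2.
Nfkbia: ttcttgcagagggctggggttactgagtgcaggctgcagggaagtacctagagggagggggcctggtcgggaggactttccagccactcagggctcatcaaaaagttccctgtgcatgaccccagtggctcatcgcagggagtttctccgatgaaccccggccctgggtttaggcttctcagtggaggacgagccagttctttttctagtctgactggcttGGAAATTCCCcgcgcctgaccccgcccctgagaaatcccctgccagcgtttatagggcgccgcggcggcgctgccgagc
Psme1: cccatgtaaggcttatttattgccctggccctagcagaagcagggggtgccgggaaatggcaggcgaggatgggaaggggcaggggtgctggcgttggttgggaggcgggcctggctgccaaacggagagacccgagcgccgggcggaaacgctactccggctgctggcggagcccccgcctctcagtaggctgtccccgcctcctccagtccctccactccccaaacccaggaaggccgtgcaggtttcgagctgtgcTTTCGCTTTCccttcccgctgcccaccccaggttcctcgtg
Gbp2: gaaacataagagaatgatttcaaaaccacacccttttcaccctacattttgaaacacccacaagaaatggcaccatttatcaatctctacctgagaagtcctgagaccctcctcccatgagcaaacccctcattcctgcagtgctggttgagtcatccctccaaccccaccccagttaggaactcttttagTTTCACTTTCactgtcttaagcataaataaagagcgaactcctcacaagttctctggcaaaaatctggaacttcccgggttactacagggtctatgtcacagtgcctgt
The NF-kB letters occur in 1.63% of all 32851 promoters and the IRF letters in 3.44%. Of the tested genes with a promoter in the table, 6 of 26 NF-kB targets hold the NF-kB motif and 13 of 31 interferon-gamma and IRF1 genes the IRF motif, against 2.37% and 5.53% of all tested genes. The IRF motif is not particular to that group: 21 of 37 type I interferon-stimulated genes and 5 of 20 MHC class I genes hold it. A match is a description of the letters and not a bound site.

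Of the genes around the immunoproteasome, 3 picked with their values in view had lower levels in Irf1_dXCR1 plates, and none passed. Psme1 had 569.7, 584, 555, 739.6 and 582 CPM in Irf1_dXCR1 plates and 751, 1107, 855 and 1147 CPM in Ikbkb_dXCR1 plates. The groups do not overlap, at a log2 difference of -0.67 (SE 0.20, adjusted p = 0.703), beside -0.01 (SE 0.33) between the controls. Psmb9 and Psmb10, catalytic subunits of the immunoproteasome, differed by -0.43 (SE 0.18) and -0.48 (SE 0.22), beside -0.14 and 0.26 between the controls. Other members of the interferon-gamma and IRF1 list did not follow: the most abundant ones, B2m (class I light chain) and Psme2, differed by 0.13 (SE 0.15; controls 0.27) and -0.08 (SE 0.17; controls 0.11), with 24 of 41 tested members higher and 17 lower. The list summed to 14325 and 15589 CPM in the older Ikbkb_dXCR1 mice (replicates 1 and 2) and to 20365 and 21763 CPM in replicates 3 and 4. Irf1_dXCR1 plates had 15455 to 21106 CPM. The MHC class I heavy chain H2-D1 differed by 0.07 (SE 0.14; controls 0.23, SE 0.23), or -0.10 in cDC1-like cells alone. Of 24 MHC class I genes 15 were lower and 0 passed. Bcl2l14, a member of the BCL2 family, had 60.5, 0.227, 28.4, 32.2 and 124 CPM in Irf1_dXCR1 plates and 339, 268, 465 and 237 CPM in Ikbkb_dXCR1 plates. This difference of -2.73 (SE 0.86) stands beside 0.45 (SE 1.43) between the controls. Txndc17, a thioredoxin-like protein, had 81.7 to 369.7 CPM in Irf1_dXCR1 plates and 543 to 613 CPM in Ikbkb_dXCR1 plates (log2 -1.23, SE 0.35; controls 0.72, SE 0.61). Neither passed (adjusted p = 0.864 and 0.70). Psme1, Psmb9, Psmb10, Bcl2l14 and Txndc17 were picked with their values in view.

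Cytokine genes did not pass over all cells. Ccl5, a chemokine that draws T cells, differed by -0.52 (SE 0.74; controls 0.51, SE 1.28) and Il12b, a subunit of interleukin 12, by -0.25 (SE 0.62; controls 0.74, SE 1.10), or 0.058 for Il12b in cDC1-like cells. Ccl4, another T cell chemokine, had 512 to 699 CPM in Irf1_dXCR1 plates and 90.1 to 437 CPM in Ikbkb_dXCR1 plates (log2 0.79, SE 0.39; controls -0.18, SE 0.64). Ccl22, made by mature dendritic cells, differed by 0.30 (SE 0.41; controls 0.95, SE 0.72). Of 14 tested chemokines and cytokines 10 were higher, with 0 past the threshold.

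Genes of cDC1 identity were mostly lower in Irf1_dXCR1 plates, as they were in the Irf1_FF plates against the Ikbkb_FF plate. Of 26 tested members 23 were lower, 7 of them at an unadjusted p under 0.05 and 0 past the threshold, with a median of -0.39 beside -0.47 between the controls. Over all tested genes 2211 of 4580 were lower, 108 (2.36%) of them at that p. Within cDC1-like cells alone, 19 of 26 members were lower with a median of -0.17 and 0 at that p, and in immature cells 18 of 27 were higher with a median of 0.14. Xcr1, the chemokine receptor whose gene drives the deleter, had 127, 99.6, 55.7, 237 and 126.4 CPM in Irf1_dXCR1 plates and 239, 396, 77.4 and 339 CPM in Ikbkb_dXCR1 plates. Its log2 differences were -1.02 (SE 0.46) between the deleted and -0.97 (SE 0.72) between the control plates. Irf8, the factor on which cDC1 depend, differed by -0.43 (SE 0.17; controls -0.25, SE 0.27), and Id2 by -0.35 (SE 0.15; controls -0.35, SE 0.25). Tlr11, a receptor for parasite profilin, averaged 67.6 ± 19.4 CPM in Irf1_dXCR1 plates and 174 ± 99.2 CPM in Ikbkb_dXCR1 plates (log2 -1.37, SE 0.49; controls -0.10, SE 0.81). In bulk sums of plates, fewer cells of a type and less RNA per cell cannot be told apart. XCR1 staining at the sort, an independent readout, was 7.21, 7.44, 8.05, 7.52 and 7.76 on the arcsinh scale in Irf1_dXCR1 plates and 8.90, 9.38 and 7.87 in the 3 stained Ikbkb_dXCR1 plates (plate medians). The difference of -1.12 had an exact permutation p of 0.0714, adjusted over 8 stainings 0.571, where 5 against 3 plates cannot go below 0.0357. The Irf1_FF plates had 7.71, 7.95, 8.91 and 9.27, and the Ikbkb_FF plate was not stained.

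Glycolysis genes leaned higher in Irf1_dXCR1 plates, in 15 of 17 cases, 5 at an unadjusted p under 0.05 and 0 past the threshold, with a median of 0.59 beside 0.29 between the controls and 0.02 over all genes, of which 117 (2.55%) were higher at that p. In cDC1-like cells alone 2 of 17 were higher at that p, against 72 (1.54%) of all 4671 genes tested there. The enzyme gene Aldoa had 1275, 793, 1098, 979 and 709 CPM in Irf1_dXCR1 plates and 559, 424, 614 and 688 CPM in Ikbkb_dXCR1 plates. The groups do not overlap (log2 0.76, SE 0.22), and the control plates differed by 0.86 (SE 0.38). Eno1, the enolase gene, had 164 to 397 CPM in Irf1_dXCR1 plates and 118 to 159 CPM in Ikbkb_dXCR1 plates (log2 1.04, SE 0.36; controls 0.23, SE 0.60). It has near-identical copies, so its counts are uncertain. Pkm, the pyruvate kinase gene, differed by 0.56 (SE 0.22; controls 0.02, SE 0.36), and Ldha, for lactate dehydrogenase, by 0.08 (SE 0.18; controls -0.07, SE 0.29). Aldoa, Eno1, Gadd45b, Ccl5, Il12b, Tlr11 and Col1a1 were also picked with their values in view. Type I interferon-stimulated genes were split, with 32 of 48 higher and a median of 0.13. Without Ikbkb_dXCR1 replicate 1 or 2 the median turned to -0.03 or -0.04, with 23 or 22 higher, and without replicate 4 it was 0.40 with 43 higher. Replicates 1 and 2, the older Ikbkb_dXCR1 mice, had summed levels of 11353 and 11999 CPM. The 6-week-old replicates 3 and 4 had 22222 and 26400 CPM. Irf1_dXCR1 plates, all from 6-week-old mice, had 14848 to 26894 CPM, and Irf1_FF plates of that age 13167 to 15320 CPM. No Irf1_dXCR1 plate matches the older mice, and the part of age was not tested. Among these interferon-stimulated genes Ifitm3, an antiviral membrane protein, differed by 0.50 (SE 0.29; controls 0.87, SE 0.51), and Ly6e by 0.06 (SE 0.24; controls -0.08, SE 0.40), or -0.095 in 6-week-old mice alone.

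The difference between the deleted plates was itself set against that between the control plates. It differed for 4 genes (0.0873%), Naa25, Tor2a, Igbp1 and Slc30a7, and for 208 (4.54%) at an unadjusted edgeR p under 0.05. In these 4 genes the deleted plates overlapped, and the Ikbkb_FF plate was at 0 to 1.17 CPM, so the calls rest on that plate. Naa25, a subunit of an acetyltransferase of protein ends, had 54.8 to 92.5 CPM in Irf1_dXCR1 plates and 41.4 to 125.6 CPM in Ikbkb_dXCR1 plates.

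**Figure D3:**
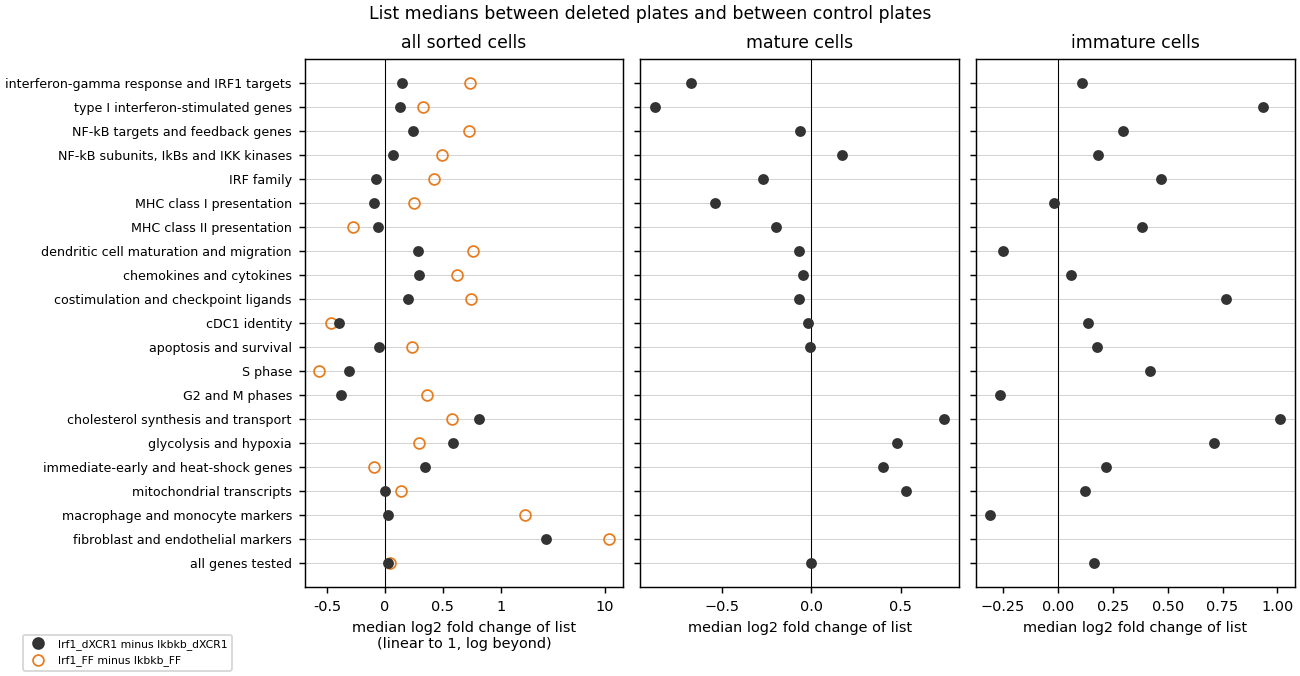
Median log2 fold change (x axis) of each gene list with at least 5 tested genes. Filled points are Irf1_dXCR1 minus Ikbkb_dXCR1 and open points, drawn for all sorted cells only, Irf1_FF minus Ikbkb_FF; cDC1 identity is below 0 in both, fibroblast markers above 0 in both, and type I interferon-stimulated genes lie at -0.87 in mature and 0.93 in immature cells.

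Within mature cells, genes of the interferon-gamma and IRF1 group were mostly lower in Irf1_dXCR1 than in Ikbkb_dXCR1 cells, led by Ccl5 and the interferon-inducible transcript AW112010, without a gene past the threshold of the edgeR fit. The fit used plates with at least 5 mature cells, which are 5 Irf1_dXCR1 and 2 Ikbkb_dXCR1 plates (replicates 3 and 4), and 3431 genes. At the adjusted threshold 0 genes were called (0%) and 105 genes (3.06%) had an unadjusted p under 0.05. With the genes kept by the filterByExpr filter, 3 genes passed: Ccl5 (adjusted p = 5.58e-05), AW112010 (0.00431) and Etfdh (0.00534). DESeq2 called 64 genes. The Ikbkb_FF plate gave 5 mature cells, and the difference between the controls had a median of 1.26 over all tested genes. Between the controls 93 genes (2.71%) were called, and the difference of the 2 differences was called for 76 (2.22%). The Ikbkb_FF side of both contrasts is those 5 cells of 1 plate.

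Ccl5 (chr11:83525778-83530518) had 1319, 282, 767, 538 and 306 CPM in mature Irf1_dXCR1 cells and 2635 and 2573 CPM in mature Ikbkb_dXCR1 cells. Control cells had 2845, 4502 and 2325 CPM in Irf1_FF plates and 3173 CPM in the Ikbkb_FF plate. All Irf1_dXCR1 plates are the low ones; the log2 difference was -2.02 (SE 0.49, adjusted p = 0.635), beside 0.02 (SE 0.73) between the controls. AW112010 (chr19:11047612-11050566), an interferon-inducible transcript, had 742, 692, 1459.9, 605 and 972 CPM in Irf1_dXCR1 cells and 2970.1 and 2280.1 CPM in Ikbkb_dXCR1 cells. It was counted in 27 of 53 Irf1_dXCR1 cells and 28 of 28 Ikbkb_dXCR1 cells of these plates, at a log2 difference of -1.55 (SE 0.32, adjusted p = 0.635; controls 0.15, SE 0.47). Txn1 had 1043, 913, 963, 1069.9 and 809 CPM in Irf1_dXCR1 cells and 1968 and 2274 CPM in Ikbkb_dXCR1 cells (log2 -1.14, SE 0.28; controls 0.44, SE 0.42). Il12b overlapped, at 1111 to 2244 CPM in Irf1_dXCR1 cells and 1139 and 3209.7 CPM in Ikbkb_dXCR1 cells (log2 -0.55, SE 0.39; controls 0.22, SE 0.56).

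Single genes of antigen presentation and the guanylate-binding protein gene Gbp2, picked with their values in view, had lower levels without passing. Psme1 had 743, 787, 583, 1174 and 792 CPM in mature Irf1_dXCR1 cells and 1286 and 1862 CPM in mature Ikbkb_dXCR1 cells (log2 -0.95, SE 0.30; controls 0.44, SE 0.45). Psmb10 had 721, 252, 218, 260.2 and 346 CPM in Irf1_dXCR1 cells and 728 and 1065 CPM in Ikbkb_dXCR1 cells (log2 -1.32, SE 0.48), while its control gap was 2.35 (SE 0.81) because the Ikbkb_FF plate had 144 CPM. The class I heavy chain H2-K1 had 1871 to 2266 CPM in Irf1_dXCR1 cells and 2365 and 3715 CPM in Ikbkb_dXCR1 cells (log2 -0.53, SE 0.20; controls 0.45, SE 0.30). Gbp2 had 141, 381, 211, 18.8 and 34.4 CPM in Irf1_dXCR1 cells and 681 and 438 CPM in Ikbkb_dXCR1 cells (log2 -1.83, SE 0.88; controls 1.51, SE 1.43). In all 4 genes every Irf1_dXCR1 plate was below both Ikbkb_dXCR1 plates, which 241 (7.02%) of the tested genes also showed. None of the 4 passed (adjusted p = 0.999).

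Outside antigen presentation, Bcl2l14 had 271, 0, 0, 94.6 and 270.5 CPM in mature Irf1_dXCR1 cells and 1232 and 980.1 CPM in mature Ikbkb_dXCR1 cells (log2 -3.11, SE 1.41; controls 0.16, SE 2.10). It was counted in 10 of 53 Irf1_dXCR1 cells and 20 of 28 Ikbkb_dXCR1 cells. Txndc17 had 311, 285, 0, 432 and 390.3 CPM in Irf1_dXCR1 cells and 1344 and 1836 CPM in Ikbkb_dXCR1 cells, and 17 of 53 and 24 of 28 of these cells held a count. Both groups of controls, at 858 to 1673 CPM for Bcl2l14 and 1719.5 to 2554 CPM for Txndc17, lie far above the Irf1_dXCR1 plates. Both genes, with the targeted genes, Nfkbia and Il12b in mature cells, were picked with their values in view, and neither passed (adjusted p = 0.999).

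By list, 32 of 37 interferon-gamma and IRF1 genes were lower in mature Irf1_dXCR1 cells, 5 at an unadjusted edgeR p under 0.05. Their median was -0.67 against 0.00 over all genes tested, of which 1716 of 3431 were lower, 34 (0.991%) at that p. Without Ikbkb_dXCR1 replicate 4, 27 of 37 were lower with a median of -0.47. The summed level of the list was 25361, 21954, 23233, 22520 and 19684 CPM in Irf1_dXCR1 cells, 29752 and 39839 CPM in Ikbkb_dXCR1 cells, 29908 to 42692 CPM in Irf1_FF cells and 23936 CPM in the Ikbkb_FF cells. MHC class I genes were lower in 19 of 22 cases with a median of -0.54, or in 17 of 22 with -0.33 without Ikbkb_dXCR1 replicate 4. Type I interferon-stimulated genes were lower in 38 of 41 cases with a median of -0.87, but without Ikbkb_dXCR1 replicate 4 in 24 of 41 with a median of -0.18. That plate alone had a summed level of 24906 CPM, against 14847 CPM in Ikbkb_dXCR1 replicate 3 and 5624 to 17870 CPM in Irf1_dXCR1 plates. Control cells had 6364 to 10663 CPM in Irf1_FF plates and 4464 CPM in the Ikbkb_FF plate. Both Ikbkb_dXCR1 plates, and all Irf1_dXCR1 plates but replicate 2, lay above every control plate. NF-kB targets were divided, with 16 of 34 higher and a median of -0.06, and maturation genes with 17 of 41 higher and a median of -0.07. Nfkbia was at 1228 to 2577 CPM in Irf1_dXCR1 cells and 1113 and 1954 CPM in Ikbkb_dXCR1 cells (log2 0.48, SE 0.32; controls 0.93, SE 0.46). Irf1 itself had 366 to 814 CPM in mature Irf1_dXCR1 cells and 542 and 472 CPM in mature Ikbkb_dXCR1 cells (log2 0.18, SE 0.42, or -0.031 with at least 10 cells per plate). The control cells had 804, 696 and 1021 CPM of Irf1 in Irf1_FF plates and 51.0 CPM in the Ikbkb_FF plate (log2 4.04, SE 0.76, adjusted p = 0.0172), and the difference of the 2 differences was -3.86 (SE 0.82, adjusted p = 0.0325). Ikbkb differed by 0.22 (SE 0.44; controls 0.40, SE 0.62), or -0.038 with at least 10 cells per plate.

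Some genes were higher in mature Irf1_dXCR1 cells, where 129 (3.76%) of the tested genes had every Irf1_dXCR1 plate above both Ikbkb_dXCR1 plates. Etfdh, an electron-transfer enzyme of mitochondria, had 104, 394, 313, 248 and 349 CPM in Irf1_dXCR1 cells and was at 0 in both Ikbkb_dXCR1 plates. It was counted in 19 of 53 Irf1_dXCR1 cells and 0 of the 28 Ikbkb_dXCR1 cells of these plates, which allows a share of up to 10.7% of cells with a UMI, for counting error only. No lower bound is put on the fold: a gene counted in a cell had a median of 64 UMIs, so UMIs are not independent. The edgeR adjusted p of Etfdh was 0.0802. Irf1_FF and Ikbkb_FF cells had 108 to 368 and 235 CPM. Pno1, a ribosome assembly factor, had 49.1 to 181 CPM in Irf1_dXCR1 cells and 0 CPM in both Ikbkb_dXCR1 plates. Bnip3l, a mitophagy receptor, had 77.8 to 438 CPM in Irf1_dXCR1 cells and 0 CPM in both Ikbkb_dXCR1 plates (adjusted p of 0.635, as for Pno1). Controls had 53.7 to 355 CPM of Pno1; Bnip3l was at 11.1 to 212 CPM in Irf1_FF cells and at 0 in Ikbkb_FF cells. Macrophage markers summed to 0 to 287 CPM in mature Irf1_dXCR1 cells and to 507 and 252 CPM in mature Ikbkb_dXCR1 cells over the 3 tested members, and 0 fibroblast markers were tested there. A second clustering left out 121 genes, those of the interferon and MHC class I lists and those picked with values in view. In it 131 of 135 mature cells were again mature, and 31 of 37 interferon-gamma and IRF1 genes were lower with a median of -0.73.

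**Figure D4:**
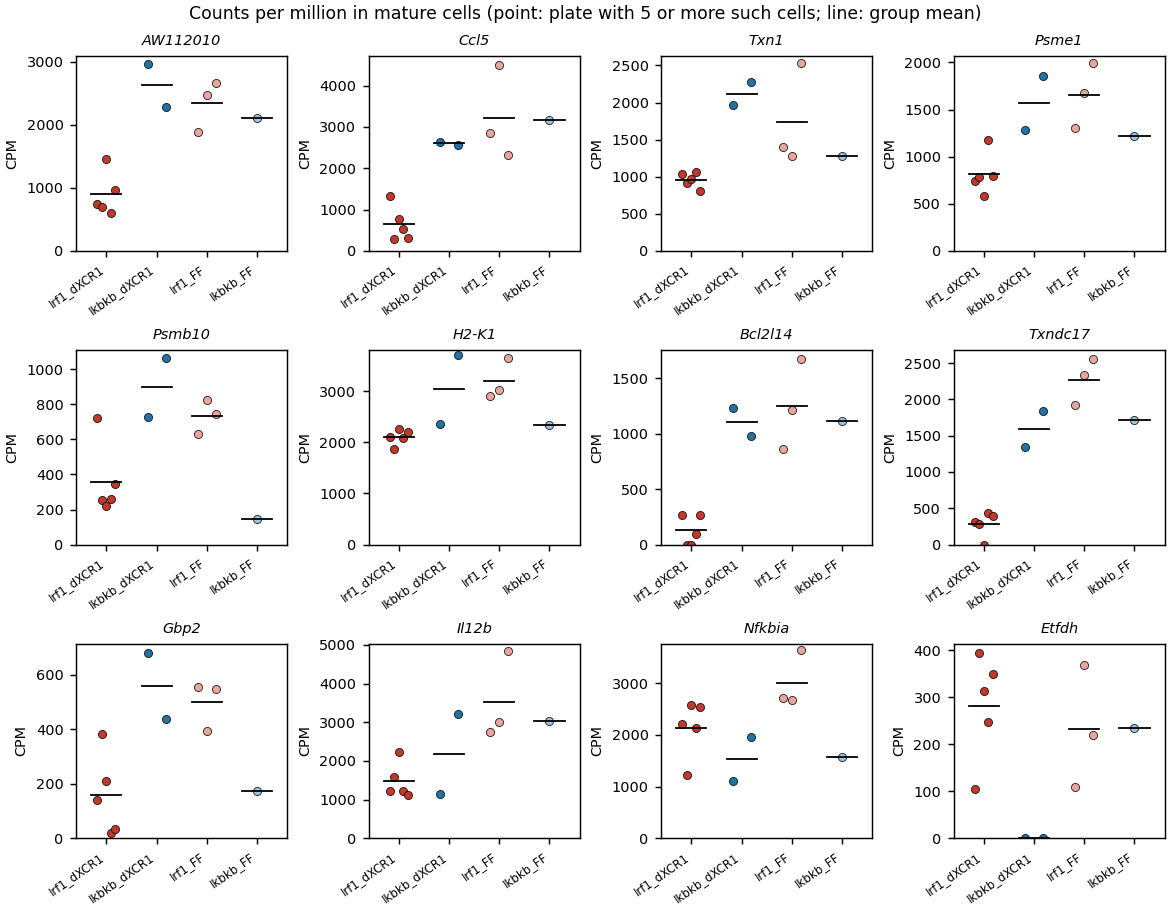
CPM in mature cells (y axis) of 12 genes by group. Points are plates with at least 5 mature cells and lines are group means; the 5 Irf1_dXCR1 plates lie below both Ikbkb_dXCR1 plates for the first 9 genes, Il12b and Nfkbia overlap, and Etfdh is at 0 in both Ikbkb_dXCR1 plates.

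CD11c staining of mature cells was 10.2, 9.59, 10.4, 9.64 and 10.1 in Irf1_dXCR1 plates and 9.32 and 8.63 in the Ikbkb_dXCR1 plates with at least 3 stained mature cells (replicates 1 and 3). In immature cells it was 10.5, 10.4 and 10.1 in Irf1_dXCR1 plates and 9.55, 9.70 and 8.76 in Ikbkb_dXCR1 plates. The groups do not overlap in either state, with exact permutation p of 0.0952 and 0.100, the smallest these numbers of plates allow, and 0.381 and 0.2 adjusted over 8 stainings. CD45 was also higher without overlap in both states, and in immature cells forward scatter was higher and CD11b lower without overlap, at the same p as CD11c. The CD11b medians of immature cells were -5.40, 4.10 and -4.87 in Irf1_dXCR1 plates and 7.11, 5.61 and 6.90 in Ikbkb_dXCR1 plates. Irf1_FF plates had CD11c at 9.22, 9.17 and 8.73 in mature cells, and the Ikbkb_FF plate was not stained. In all cDC1-like cells together the CD11c groups overlapped (exact permutation p = 0.321). Over all cells CD11c differed by 0.207 (exact permutation p = 0.571), and MHCII by -0.349 (p = 0.321 by the same exact test).

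Immature cDC1-like cells gave another picture of the interferon genes. The fit used Irf1_dXCR1 replicates 1, 4 and 5 and Ikbkb_dXCR1 replicates 2, 3 and 4, tested 5355 genes, called 0 and found 192 (3.59%) at an unadjusted p under 0.05; DESeq2 called 87. In Irf1_dXCR1 cells 34 of the 39 tested type I interferon-stimulated genes were higher, 3 at an unadjusted p under 0.05, with a median of 0.93 against 0.16 over all genes tested and -0.17 between the controls. Their summed level was 22339, 17403 and 16426 CPM in Irf1_dXCR1 cells, 10732, 12826 and 11723 CPM in Ikbkb_dXCR1 cells, 10436, 8638 and 14726 CPM in Irf1_FF cells and 11668 CPM in Ikbkb_FF cells. All 3 Irf1_dXCR1 plates lie above every other plate of this state. Interferon-stimulated cells form a separate state named by genes such as Isg15, so these genes partly decide which cells count as immature. Over all tested genes 3139 of 5355 were higher, 164 (3.06%) of them at an unadjusted edgeR p under 0.05.

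Ifitm3 had 2418, 1565 and 2067 CPM in immature Irf1_dXCR1 cells and 1205, 1451 and 734 CPM in immature Ikbkb_dXCR1 cells (log2 0.84, SE 0.28; controls -0.23, SE 0.38). Irf7, the factor that amplifies type I interferon, had 2042, 1588 and 1151 CPM in Irf1_dXCR1 cells and 218, 1009 and 265 CPM in Ikbkb_dXCR1 cells (log2 1.68, SE 0.60; controls 2.34, SE 0.96). Isg15, a ubiquitin-like protein, had 722, 417 and 347 CPM in Irf1_dXCR1 cells and 68.4, 317 and 109 CPM in Ikbkb_dXCR1 cells (log2 1.59, SE 0.75; controls 0.40, SE 1.06). The groups do not overlap for any of the 3, as in 510 (9.52%) of the tested genes that were higher in every Irf1_dXCR1 plate. None passed (adjusted p = 1.00), and they were picked with their values in view. Over all sorted cells Irf7 overlapped (log2 0.52, SE 0.38; -0.10 in 6-week-old mice alone). Interferon-gamma and IRF1 genes were divided in immature cells, with 16 of 30 higher and a median of 0.11, as were MHC class I genes, with 9 of 23 higher. MHC class II genes were higher in 11 of 11 cases with a median of 0.38, or in 7 of 11 with 0.08 without Ikbkb_dXCR1 replicate 3.

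Among single genes, Pkm had 1255, 1427 and 1160.4 CPM in immature Irf1_dXCR1 cells and 711, 474 and 759.5 CPM in immature Ikbkb_dXCR1 cells (log2 0.98, SE 0.24; controls 0.02, SE 0.33). The splicing factor gene Srsf7 had 859, 1213 and 1174 CPM in Irf1_dXCR1 cells and 394, 443 and 573 CPM in Ikbkb_dXCR1 cells, with 1026 to 1146 CPM in the control plates (log2 1.20, SE 0.25; controls 0.13, SE 0.35). Prkra, an activator of the kinase PKR, had 116 to 364 CPM in Irf1_dXCR1 cells and 0 to 1.85 CPM in Ikbkb_dXCR1 cells, and Anapc16, a subunit of the anaphase-promoting complex, 60.6 to 277 CPM in Irf1_dXCR1 cells and 0 CPM in Ikbkb_dXCR1 plates. The controls differed by 0.95 (SE 1.68) for Prkra and 0.19 (SE 1.88) for Anapc16. Lyz2, the lysozyme gene of myeloid cells, had 325, 368 and 460.0 CPM in Irf1_dXCR1 cells and 1512, 834 and 1239 CPM in Ikbkb_dXCR1 cells (log2 -1.64, SE 0.41; controls -0.16, SE 0.56). The secreted factor Fgl2 had 429.5 to 612 CPM in Irf1_dXCR1 cells and 877 to 1208 CPM in Ikbkb_dXCR1 cells, and the scavenger receptor Cd36 46.0 to 105 CPM in Irf1_dXCR1 cells and 323 to 388 CPM in Ikbkb_dXCR1 cells. The controls differed by -0.42 (SE 0.36) for Fgl2 and -0.08 (SE 0.86) for Cd36. Of all tested genes 194 (3.62%) were lower in every Irf1_dXCR1 plate of this state. None passed (adjusted p between 0.974 and 1.00). Ikbkb was at 475, 211 and 427 CPM in immature Irf1_dXCR1 cells and at 86.3, 104 and 191 CPM in immature Ikbkb_dXCR1 cells (log2 1.54, SE 0.64; controls 0.71, SE 0.93). The Ikbkb values do not overlap, without passing, as in 510 (9.52%) of the tested genes that were higher in every Irf1_dXCR1 plate. Irf1 was counted in 4 of 36 immature Irf1_dXCR1 and 3 of 21 immature Ikbkb_dXCR1 cells of the fitted plates, too few to compare. Xcr1 differed by -0.13 (SE 0.58; controls -0.61, SE 0.79) and Nfkbia by 0.29 (SE 0.43; controls 0.58, SE 0.63). Pkm, Ikbkb, Irf1, Xcr1 and Nfkbia in immature cells were picked with their values in view. Macrophage markers summed to 1126 to 1450.2 CPM in immature Irf1_dXCR1 cells and 2262 to 2422 CPM in immature Ikbkb_dXCR1 cells over 9 tested members, Lyz2 among them, and their part in these differences was not tested.

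The second clustering, which left out only the interferon and MHC class I lists and genes picked with values in view, kept 87 of 113 immature cells. Other compared genes were not left out. In this clustering the type I interferon-stimulated group had 32 of 39 immature-cell members higher with a median of 0.73. No cluster was named interferon-stimulated, but an unnamed cluster of 137 cells had Ifi205, Ifitm6 and Isg20 among its top 10 genes. Cells with high interferon genes could thus still be set apart from immature cells, so the second clustering is not an independent check of this group. Irf7, Srsf7 and Lyz2 again separated the groups, at 1.40 (SE 0.68), 0.94 (SE 0.26) and -1.43 (SE 0.48) on the log2 scale. Ikbkb (1.65, SE 0.77) and Nfkbia (0.57, SE 0.30) were also higher without overlap. The groups overlapped for Ifitm3 (0.97, SE 0.36), Isg15 (1.24, SE 1.47), Pkm (0.50, SE 0.30) and Prkra (0.96, SE 1.70). They also overlapped for Anapc16 (1.25, SE 2.02), Fgl2 (-0.32, SE 0.45), Cd36 (-2.59, SE 1.47) and Xcr1 (-0.56, SE 0.52).

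**Figure D5:**
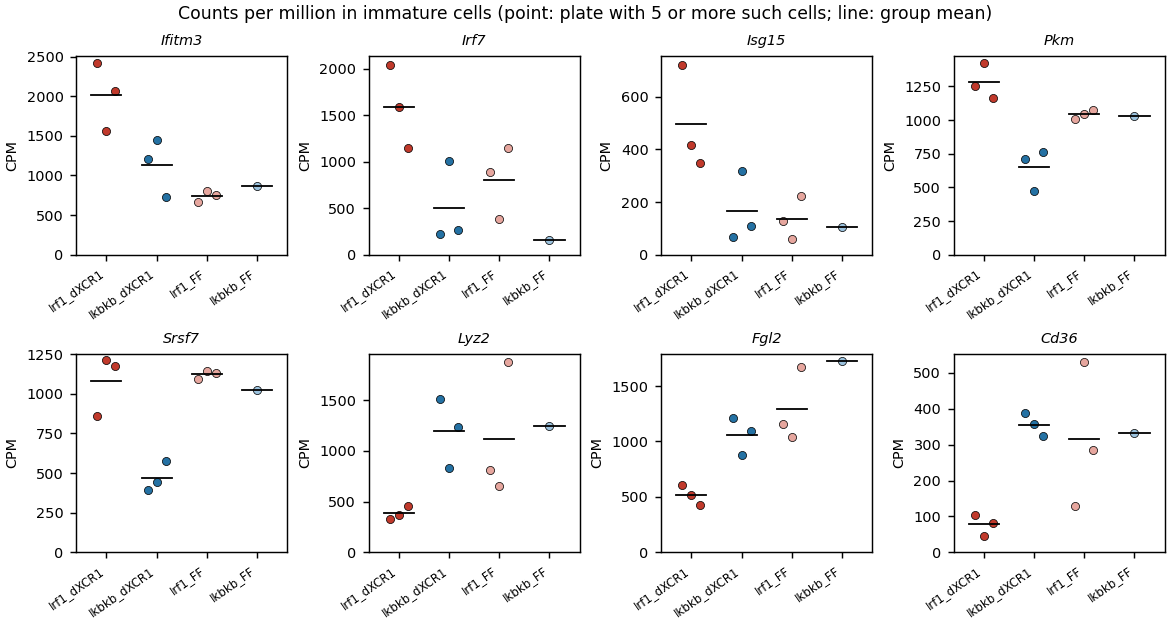
CPM in immature cDC1-like cells (y axis) of 8 genes by group. Points are plates with at least 5 immature cells and lines are group means; Ifitm3, Irf7, Isg15, Pkm and Srsf7 are higher and Lyz2, Fgl2 and Cd36 lower in all 3 Irf1_dXCR1 plates than in the 3 Ikbkb_dXCR1 plates.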

How the data were processed

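Plates of 96 wells took 1 sorted cell per well, spike-in RNA was added, and transcripts were tagged at the 5′ end with a UMI, per the labels' protocols. The authors deposited UMI counts of 21205 genes in 555 cells, raw and as whole numbers. A count is at most 1024, the number of UMIs of 5 bases, so abundant transcripts are understated. The deposited annotation gives the mitochondrial and spike-in UMIs as a fraction and the stainings on an arcsinh scale for 458 cells. STAR 2.5.3a, HTSeq 0.9.1, bcl2fastq and GRCm38 are named in the submitters' processing notes. Filters on cells are not stated there.

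Counts were summed per plate. Genes in at least 10% of cells were scaled by TMM. The main test was the edgeR 4.0.16 quasi-likelihood F test (two-sided, Benjamini-Hochberg, threshold 0.05) in 1 fit of all 14 plates and 4 groups; the lone Ikbkb_FF plate is assumed to vary like the others. CPM are counts per 1000000 UMIs after TMM. State fits used plates with at least 5 cells of the state. Clusters came from scanpy 1.11.5 (2000 variable genes, 15 components, 15 neighbours, Leiden resolution 1) and were named by fixed markers; no doublet caller was run on cells sorted singly. Plate shares, stainings and depth were compared with exact permutation tests in scipy 1.17.1. The fit was tested on simulated data. Symbols were matched to GENCODE for 21041 genes.

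The plates, gene lists and rules were chosen with earlier results of these data known. The naming rule took the targeted genes, the 6 highest and 6 lowest by p (3 and 3 in a state) with at least 10 CPM, and the 2 most abundant members of the lists described, unless stated. DESeq2 1.42.0, limma 3.58.1 and other filters, cells, plates and clusterings were alternatives.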

Additional observations from a re-analysis of the deposited data

Results flagged for a closer look

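Among 212 groups of 4 or 5 plates looked at, 23 values stood far from the rest of their group, where chance gives about 1 in 20. In Irf1_dXCR1 plates these were Psme1 in replicate 4 (739.6 CPM, others 555 to 584), Il12b in replicate 3 (640.2 CPM, others 223 to 302), Psmb10 in mature cells of replicate 1 (721 CPM, others 218 to 346) and Bnip3l in mature cells of replicate 2 (438 CPM, others 77.8 to 167). Irf1_dXCR1 replicate 1 also had a CD64 staining of 8.16 (others 5.41 to 6.04) and an MHCII staining of 8.38 (others 9.07 to 9.27). In Ikbkb_dXCR1 plates, replicate 1 had Ccl4 at 90.1 CPM (others 396 to 437), Psmb9 at 1278 CPM (others 1625 to 1672) and T cell-like cells at 16.7% (others 0%). Irf1 in Ikbkb_dXCR1 replicate 3 was at 331 CPM (others 194 to 208) and its fibroblast- or endothelial-like share was 2.63% (others 0%). Ikbkb_dXCR1 replicate 4 had Eno1 at 118 CPM (others 154 to 159), Sec23a at 6.09 CPM (others 0 to 0.335) and a cluster 9 share of 1.96% (others 0%), and replicate 2 had Fn1 at 2.78 CPM (others 0 to 0.154). In Irf1_FF plates, replicate 4 had B2m at 5536 CPM (others 3480.2 to 3609), Txn1 at 1178 CPM (others 981 to 1001) and CD64 staining at -3.87 (others 5.99 to 7.36). Irf1_FF replicate 3 had Fbxo6 at 138 CPM (others 173 to 177) and 16.1% proliferating cells (others 6.98 to 7.84%). Igbp1 in Irf1_FF replicate 2 was at 44.4 CPM (others 82.0 to 89.7), Il12b in replicate 1 at 30.4 CPM (others 828 to 914) and side scatter in replicate 1 at 12.8 (others at most 12.5).

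For 4 genes (0.0873% of 4580) the difference between the deleted plates differed from that between the control plates in the edgeR fit: Naa25 by -11.6, Tor2a by -11.8, Igbp1 by -11.9 and Slc30a7 by -6.37 on the log2 scale. Naa25, Tor2a and Igbp1 were at 0 and Slc30a7 at 1.17 CPM in the Ikbkb_FF plate, so these sizes depend on the prior count and rest on 1 plate. Naa25 averaged 75.8 ± 14.3 CPM in Irf1_dXCR1 plates and 68.8 ± 39.1 CPM in Ikbkb_dXCR1 plates (SD).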

How the results depend on the processing

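The single call over all cells rested on the setting: DESeq2 called 23 genes, filterByExpr 3 and no filter 4, and a 20% filter, the 9 plates alone, limma-trend, 6-week-old mice, cDC1-like cells, or leaving out fibroblast- or endothelial-like cells and cluster 9 (an alternative chosen after seeing the data) each called 0. Fn1 was among the genes called by DESeq2, filterByExpr and no filter. The edgeR fit also called Fn1 with upper-quartile factors (adjusted p = 0.0398), with median genes per cell as a covariate (0.0191) and without cells under 500 genes (0.0480). Leaving out 1 plate gave 0 to 1 call, and Fn1 kept its call only without Irf1_dXCR1 replicate 1 or Ikbkb_dXCR1 replicate 2 (adjusted p 0.0433 and 0.00503); the other 7 gave 0.0712 to 0.141. Between the controls DESeq2 called 153 genes, and for the difference of differences 95; filterByExpr, no filter, a 20% filter, limma-trend and the cells without the 2 clusters called 0 in both, and leaving out an Irf1_FF plate gave 0 to 5 for that difference, 0 without Irf1_FF replicate 1. In mature cells DESeq2 called 64, filterByExpr 3 and the fits without 1 plate 0 to 1; in immature cells DESeq2 called 87.

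Of 1296 single-gene values under an alternative, 1272 kept their sign. Reversals without the 2 clusters, in cDC1-like cells or in 6-week-old mice were Col3a1 (-0.64), H2-D1 (-0.10), Il12b (0.058), Irf1 (0.13), Irf7 (-0.10) and Ly6e (-0.053 and -0.095). In states, at least 10 cells per plate gave 9.62 for Irf1 in immature cells, -0.031 for Irf1 and -0.038 for Ikbkb in mature cells; at least 3 cells gave 0.19 for Xcr1 in immature cells. Leaving out 1 plate at a time gave these ranges over all cells: H2-D1 -0.017 to 0.13, Il12b -0.61 to 0.077, Irf1 -0.26 to 0.15 and Ly6e -0.13 to 0.17. In immature cells they were Irf1 -4.17 to 0.79, Nfkbia -0.060 to 0.85 and Xcr1 -0.51 to 0.35, and in mature cells Ikbkb -0.12 to 0.66 and Il12b -1.11 to 0.38.

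For shares, in percentage points, the ranges were T cells -4.61 to 0.949, cluster 4 -7.71 to 3.89, cluster 9 4.52 to 7.07, fibroblast- or endothelial-like 3.44 to 8.03, immature -8.83 to 0.0686, interferon-stimulated -3.03 to 1.59, macrophage-like -2.71 to 7.13 and mature -4.54 to 4.01. Leiden resolution 1.5 gave 1.28 for interferon-stimulated and 0.7 gave -0.235 for mature cells. UMIs per cell ranged from -17905 to 8071 (1670.5 with plate means), genes per cell from -77.4 to 306.6, mitochondrial UMIs from -0.247 to 0.204 percentage points. Stainings ranged from -0.0237 to 0.135 for side scatter, -0.802 to 0.409 for CD11b and -0.107 to 0.44 for CD11c; plate means gave 0.121 for forward scatter and -0.842 for XCR1, both with an unadjusted exact permutation p under the threshold. The causes of these changes were not tested.

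No paired analysis was possible because the labels give no replicate numbers that the plates of different genotypes share. Depth limits low genes: a state is summed over 21 to 53 cells of a deletion, in which 1 cell can set a plate's value, and intervals and limits cover counting error only.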
